A study of Mus musculus with 54 samples.

Results

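Arrays of wild-type (WT) mice labelled 26 or 28 months were compared with arrays of WT mice labelled 20 or 22 months, all of them within the old age class of the series. The members were chosen by strain and age label alone and came to 16 of the 54 arrays of the series, 6 of the older and 10 of the younger mice. The comparison asks how far transcript levels still differ between very old and old brains that carry no transgene. WT was the FVB/N background strain of the study's transgenic lines PrPmtA and PrPmtB, which express a mutant human transgene from a prion promoter.

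RNA of striatum, brainstem (described as brainstem/midbrain in the methods) and cerebellum had been hybridized to Affymetrix Mouse 430 2.0 arrays. The older group held, in each of the 3 regions, 1 array of a 28-month female and 1 array of a 26-month male. The younger group held 1 array of each region from a 20-month sample labelled as female and male together, and 22-month female arrays, 1 of striatum, 3 of brainstem and 3 of cerebellum. All 7 arrays of 22 months carried names of the array series E5R_031, and all other 9 carried names of the series E5R_054. Within E5R_054, the 3 regions of one age shared 1 array code (b for 20, d for 28 and f for 26 months), and whether a code stands for 1 mouse was not stated. Age therefore could not be told apart from sex and array code within E5R_054, nor from array series for the 22-month arrays. The labels did not say which arrays came from separate mice, so the p-values measure only the spread between these arrays. The WT arrays of 6 months quoted beside some results, 2 of each region, all belonged to a further array series, E5R_011, so that a difference from them may be one of age or of array series, which cannot be told apart.

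The ageing rodent brain is known for a slow rise of glial and immune transcripts. Microglia, the resident macrophages, take up debris into lysosomes and can switch on a set of surface and lipid-handling genes, astrocytes make more of the filament protein GFAP, and complement factors of the C1q complex increase. Metallothioneins, small zinc-binding proteins, and targets of the glucocorticoid receptor respond to stress hormones and inflammation, so that both also vary with an animal's state at death.

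The labels were checked against marker genes. Xist, the transcript of the inactive X chromosome, had log2 signals of at most 3.33 on the 26-month male arrays and of 9.50 to 11.56 on the other 13 arrays. The Y-linked Eif2s3y read 6.50 to 7.65 on the male arrays, 5.14 to 6.95 on the 20-month arrays of mixed sex and 2.78 to 3.06 on the female arrays. The mean signal of 14 marker genes of striatal medium spiny neurons was 11.02 to 11.47 in striatum against 5.51 to 7.09 elsewhere, and that of 11 cerebellar neuron genes was 12.43 to 12.57 in cerebellum against 5.22 to 8.47 elsewhere. Some arrays stood apart from others of their region. On the 22-month brainstem replicates 2 and 3 the 3′ end of the actin control exceeded its 5′ end by 2.33 and 2.23 on the log2 scale, against 1.23 to 1.77 on the other 14 arrays. In striatum the mean of 11 cortical neuron genes lay 1.81 above the 20 to 22-month mean at 26 months, 0.92 above it at 20 months, 0.36 above it at 28 months and 0.92 below it (-0.92) at 22 months.

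With region as a term, no probe set of the 45037 tested passed the adjusted threshold of 0.05 between 26 to 28 and 20 to 22 months (limma with Benjamini-Hochberg adjustment, 0% called, smallest adjusted p = 0.163). The count depended on the fit, since it became 53 without the 20-month cerebellum array, 161, 17 and 24 without the E5R_054 array code of 20, 28 or 26 months, 1355 with group means over all 54 arrays and 5027 with a trended prior. At an unadjusted p under 0.05 there were 12177 probe sets, 10329 higher and 1848 lower at 26 to 28 months, which were 22.9% and 4.10% of those tested. Among the 22518 brightest probe sets by their mean over the 54 arrays, called bright from here on, the counts were even, with 1817 higher (8.07%) and 1628 lower (7.23%). The median log2 difference of the bright probe sets was 0.02, and from the 5th to the 95th percentile they ran from -0.47 to 0.41. Within the E5R_054 arrays alone, 6 against 3, limma also called none (0%, smallest adjusted p = 0.587), and 2441 probe sets had an unadjusted p under 0.05. With so few arrays, and with dim probe sets in the majority of these counts, precision was limited.

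The genes named next were therefore not called, and are given as values. They were taken from the bright probe sets with 1 gene symbol by the smallest p, among those whose 26 and 28-month E5R_054 arrays both lay on the same side of the 20-month array in all regions, which held for 447 such probe sets above and 719 below, of 20170. That selection used the same arrays, so how well their groups separate is a description. Over all bright probe sets, the 2 age groups did not overlap in any of the 3 regions for 63 probe sets higher at 26 to 28 months (0.280%) and for 34 lower (0.151%).

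The smallest p of the named genes belonged to Mt1, which encodes metallothionein 1. In striatum its log2 signal was 12.98 at 28 and 13.03 at 26 months, against 12.72 at 20 and 12.40 at 22 months. In brainstem it was 13.35 and 13.45 against 12.73 at 20 and 12.81 to 13.01 at 22 months. In cerebellum it was 13.44 and 13.66 against 13.22 at 20 and 12.88 to 13.24 at 22 months. Every older array lay above every younger array of its region, and the 6-month WT arrays read still lower, at 11.45 and 11.46 in striatum. The difference was 0.48 (SE 0.07, limma adjusted p = 0.163), and 0.43 (SE 0.09) within E5R_054. Mt2, the gene of the second metallothionein, which was added after its values had been seen, differed by 0.57 (SE 0.12) and by 0.40 within E5R_054. In brainstem its arrays read 12.02 and 11.99 at 28 and 26 months against 11.30 to 11.53 in the younger group.

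The stretches upstream of these metallothionein genes are shown because metal response elements upstream are known to drive both genes. They are the 250 bases before each start site in RefSeq (GRCm38.p6, plus strand), Mt1 at chr8:94178839-94179088 and Mt2 at chr8:94172368-94172617. Capitals mark matches on either strand to the core of the metal response element, spelled here as TGCACNC or TGCGCNC.
Mt1: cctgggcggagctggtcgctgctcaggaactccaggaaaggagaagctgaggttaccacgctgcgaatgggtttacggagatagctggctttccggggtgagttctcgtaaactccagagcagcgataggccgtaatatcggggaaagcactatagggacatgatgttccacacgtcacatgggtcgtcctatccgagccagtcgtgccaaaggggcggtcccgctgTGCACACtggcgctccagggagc
Mt2: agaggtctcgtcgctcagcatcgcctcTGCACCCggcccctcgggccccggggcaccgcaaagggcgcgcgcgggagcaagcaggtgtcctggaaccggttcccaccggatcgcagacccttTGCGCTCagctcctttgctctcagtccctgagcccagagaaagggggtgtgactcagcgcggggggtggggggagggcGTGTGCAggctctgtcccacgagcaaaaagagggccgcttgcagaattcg
The stretch of Mt1 held 1 match and that of Mt2 held 3. Among 32851 upstream stretches of the same length, 7032 (21.4%) held at least 1 match and 415 (1.26%) at least 3. A match is a run of letters, and binding was not measured. Only these 250 bases before the RefSeq start were searched. Elements further upstream or after that start were not counted, so these numbers do not give the element content of either promoter.

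**Figure D1:**
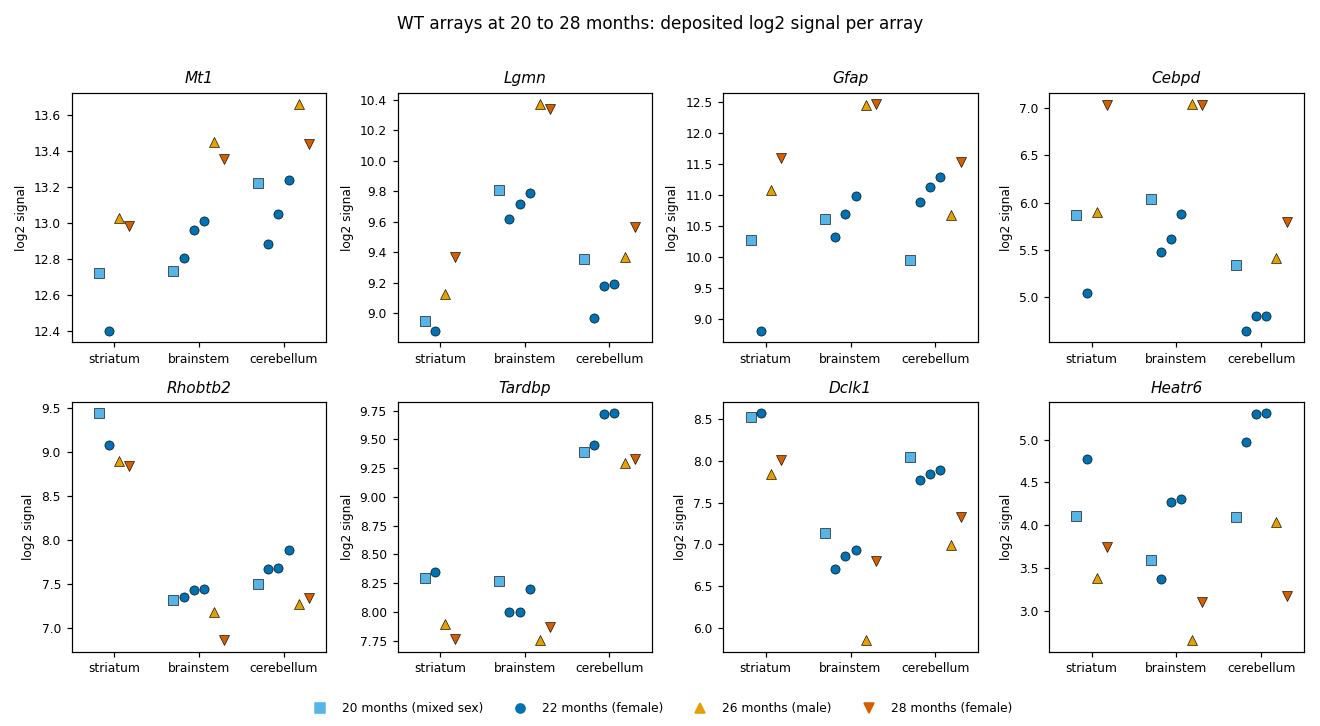
Deposited log2 signal (y axis) of 8 genes on each WT array of 20 to 28 months, by brain region (x axis), with 1 point for an array and colour and shape for age and sex. The orange points of 26 and 28 months lie above all blue points of 20 and 22 months in every region for Mt1 and Lgmn, and below them in every region for Rhobtb2, Tardbp and Heatr6, whereas Gfap overlaps in cerebellum and Dclk1 in brainstem.

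Lgmn, which encodes the lysosomal protease legumain, was higher by 0.42 (SE 0.07). Its log2 signal was 9.37 and 9.13 at 28 and 26 months in striatum against 8.95 and 8.88 at 20 and 22 months. In brainstem it was 10.34 and 10.37 against 9.62 to 9.81, and in cerebellum 9.56 and 9.37 against 8.97 to 9.35. Older arrays lay above younger ones in each region, in cerebellum by no more than 0.02 between the nearest arrays of 26 and 20 months. Cebpd, a transcription factor gene of the acute phase response, was higher by 1.0 (SE 0.19) and by 0.62 (SE 0.28) within E5R_054. It read 7.03 at 28 months in striatum against 5.87 at 20 months, but 5.90 at 26 months, next to the 20-month value. In brainstem it read 7.03 and 7.05 against 5.48 to 6.04, and in cerebellum 5.80 and 5.42 against 4.64 to 5.35.

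The other genes of the higher side were Sumf1, whose enzyme activates sulfatases (0.58, SE 0.10), Pik3ip1, an inhibitor of PI3-kinase (0.31, SE 0.05), Bid, a death agonist of the BCL2 family (0.55, SE 0.09), and Tgfbi, a secreted matrix protein (0.61, SE 0.11). They also included the kinase gene Nek6 (0.54, SE 0.10), Ctla2b, which encodes a cathepsin inhibitor-like protein (1.0, SE 0.19), and Axl, a receptor for apoptotic cells (0.44, SE 0.08). Axl showed the pattern on every array, with 7.77 and 7.37 at 28 and 26 months in striatum against 7.12 and 6.78. In brainstem it read 7.78 and 7.59 against 7.12 to 7.38, and in cerebellum 7.65 and 7.43 against 7.15 to 7.36. Ctla2b overlapped in striatum, where its 26-month array read 3.76 and its 22-month array 3.93.

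On the lower side the smallest p belonged to Rhobtb2, whose protein recruits a ubiquitin ligase. Its log2 signal was 8.84 and 8.90 at 28 and 26 months in striatum against 9.45 and 9.08 at 20 and 22 months. In brainstem it was 6.86 and 7.17 against 7.31 to 7.45, and in cerebellum 7.34 and 7.27 against 7.50 to 7.88. All older arrays lay below all younger ones of their region, by a difference of -0.38 (SE 0.07). Tardbp, the gene of the RNA-binding protein TDP-43, differed by -0.34 (SE 0.07) and by the same amount, -0.34 (SE 0.08), within E5R_054. In striatum it read 7.76 and 7.89 at 28 and 26 months against 8.29 and 8.35, and in brainstem 7.87 and 7.75 against 8.0 to 8.27. In cerebellum its older arrays read 9.33 and 9.29, close below the 20-month array at 9.39.

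Dclk1, a microtubule-associated kinase of neurons, differed by -0.64 (SE 0.12), and Khdrbs1, the splicing regulator SAM68, by -0.62 (SE 0.13). Dclk1 overlapped in brainstem, where the 28-month array read 6.81 and the lowest 22-month array 6.71, while the 26-month array read 5.86. Heatr6, of unknown function, differed by -1.08 (SE 0.23) but by -0.58 (SE 0.22) within E5R_054, since its 22-month arrays read higher than its 20-month arrays in striatum and cerebellum. The others were Wac (-0.38, SE 0.07), an adaptor of histone ubiquitination, Pxn (-0.46, SE 0.09), the focal adhesion protein paxillin, and Mtmr9 (-0.34, SE 0.08), a myotubularin-related protein. Zmym4, a zinc finger gene, differed by -0.61 (SE 0.12) and the ubiquitin ligase gene Trim41 by -0.77 (SE 0.16). In cerebellum the 2 age groups overlapped for Wac, Zmym4, Trim41 and Mtmr9. Adjusted p was 0.163 for each of the 20 genes (limma).

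**Figure D2:**
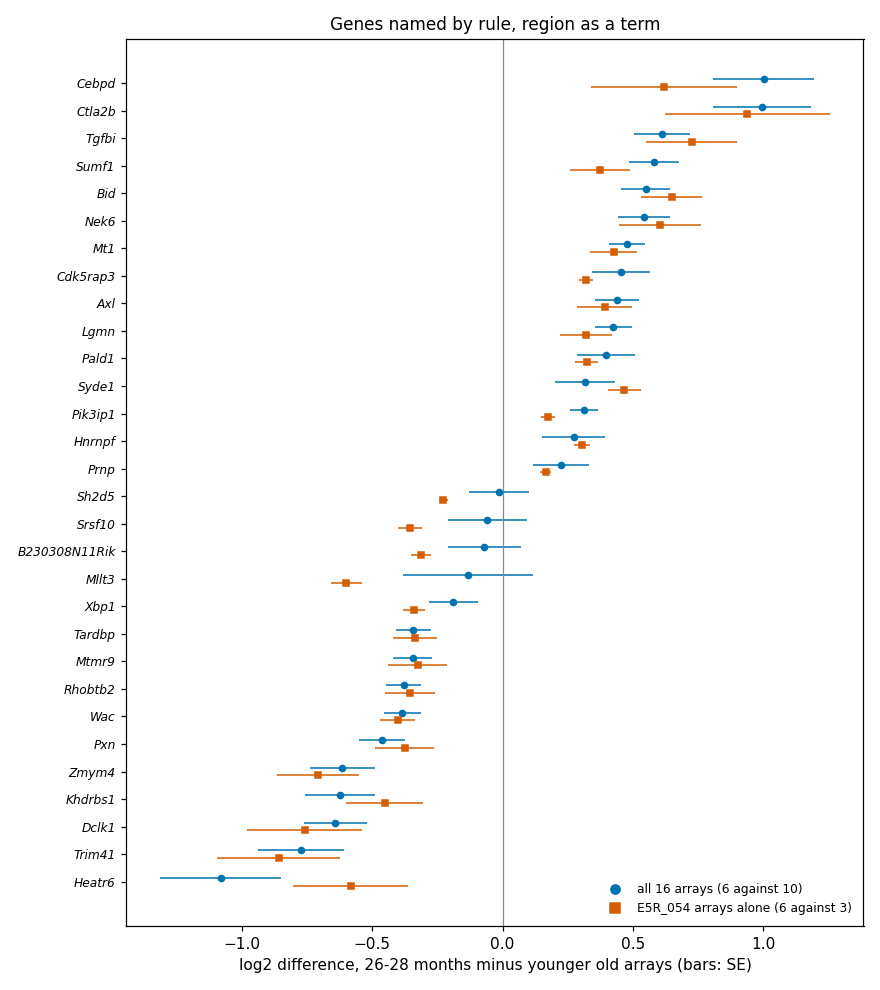
Log2 difference (x axis, bars show 1 SE) of 30 genes (y axis) between 26 to 28 months and younger old arrays, with region as a term, for all 16 WT arrays (blue) and for the E5R_054 arrays alone (orange). Cebpd and Heatr6 move towards 0 within E5R_054 (0.62 and -0.58), and Mllt3, chosen by the E5R_054 arrays, stands at -0.60 there and at -0.13 over all arrays.

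By the same rule within E5R_054, where the 22-month arrays play no part, the higher genes were Cdk5rap3 (0.32, SE 0.03), Hnrnpf (0.30, SE 0.03), Prnp (0.17, SE 0.02), Pald1 (0.32, SE 0.04) and Syde1 (0.47, SE 0.06). Hnrnpf encodes a splicing factor and Prnp the prion protein, whose promoter also drives the transgene of the other lines. The lower genes were Sh2d5 (-0.23, SE 0.02), Mllt3 (-0.60, SE 0.06), B230308N11Rik (-0.31, SE 0.04), Xbp1 (-0.34, SE 0.04) and Srsf10 (-0.36, SE 0.05). Xbp1, a transcription factor gene of the unfolded protein response, read 8.99 and 9.0 in striatum, 9.09 and 9.17 in brainstem and 9.46 and 9.57 in cerebellum at 28 and 26 months, against 9.24, 9.54 and 9.88 at 20 months. The adjusted p was 0.587 for Cdk5rap3 and Sh2d5 and 0.651 for the others (limma). Over all 16 arrays the 5 lower genes differed by -0.01 to -0.19, and their 22-month arrays read below the 20-month arrays on average.

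Transcripts of activated microglia were higher in the older group, and most of that difference lay in the 28-month female arrays. The list held 15 measured genes, of which 13 were higher at 26 to 28 months with a median log2 difference of 1.10, against 0.02 over all probe sets tested. None was called, and 10 had an unadjusted p under 0.05, all of them higher, beside 22.9% of all and 8.07% of the bright probe sets. Within E5R_054 14 of 15 were higher, with a median of 1.25. Counting all 23 probe sets of these genes over the 16 arrays, 19 were higher, with a median of 0.52. In these pieces of tissue more microglia and more RNA per microglial cell cannot be told apart.

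The list's mean signal, set against the mean of the 20 to 22-month arrays of its region, stood at 1.72 in striatum, 2.06 in brainstem and 1.55 in cerebellum at 28 months. At 26 months it stood at -0.34, 0.88 and -0.21. The younger arrays ran from -0.40 to 0.51, and the 6-month arrays from -1.22 to -1.02. The 28-month array was the highest of the old WT arrays in every region, and the 26-month array lay above the younger range only in brainstem.

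Lyz2, the lysozyme gene of macrophages, illustrates this on single arrays. In striatum it read 10.40 at 28 months against 7.02 at 26, 7.29 at 20 and 7.94 at 22 months. In brainstem it read 12.15 and 10.42 at 28 and 26 months against 8.04 to 9.24, and in cerebellum 10.90 and 8.04 against 8.54 to 9.27. The 26-month array was thus below the younger arrays in striatum and cerebellum and above them in brainstem, and the difference over all arrays was 1.53 (SE 0.59, limma adjusted p = 0.163). Lyz1, whose probe sets can share signal with Lyz2, differed by 1.42 (SE 0.55).

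Clec7a, the phagocytic receptor dectin-1, read 8.26, 9.24 and 7.72 at 28 months in striatum, brainstem and cerebellum, and 4.86, 7.70 and 4.90 at 26 months. The younger arrays ran from 5.41 to 6.72, from 5.18 to 6.83 and from 4.88 to 6.04. Gpnmb, a glycoprotein of lipid-laden phagocytes, read 6.70 at 28 and 4.32 at 26 months in brainstem, 6.61 and 3.15 in cerebellum, and 3.15 and 2.28 in striatum, against 2.49 to 3.08 on all younger arrays. It differed by 1.89 (SE 0.54), the protease inhibitor gene Cst7 by 1.73 (SE 0.58) and the lipid carrier gene Apoe by 0.33 (SE 0.10).

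**Figure D3:**
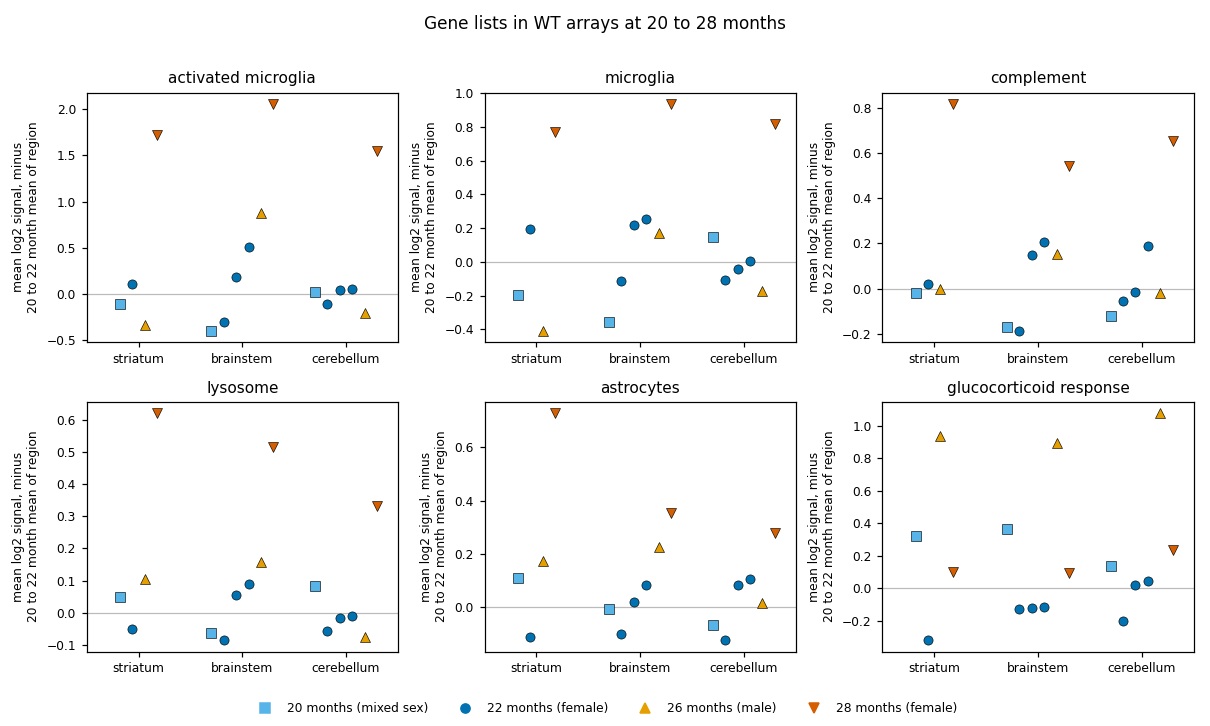
Mean log2 signal of 6 gene lists on each WT array of 20 to 28 months, minus the mean of the 20 and 22-month arrays of the same region (y axis), by region (x axis), with 1 point for an array. The 28-month female array is highest in every region for activated microglia (1.55 to 2.06), microglia, complement, lysosome and astrocytes, and the 26-month male array is highest in every region for the glucocorticoid response (0.89 to 1.08).

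Between the 26 and 28-month arrays themselves, 3 against 3 with region as a term, limma called 1 probe set (0.00222%), for Xist, at -7.57 (SE 0.04, adjusted p = 0.0233). At an unadjusted p under 0.05 there were 4645, with 2397 higher at 26 months (5.32%) and 2248 higher at 28 months (4.99%). All 15 genes of the activated microglia list were higher at 28 months, 11 of them with an unadjusted p under 0.05, and the median was -1.98 for 26 minus 28 months. Age, sex and array code cannot be told apart in this difference.

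General microglia markers followed the same arrays with smaller values. Of 14 genes 11 were higher at 26 to 28 months, with a median of 0.36. Counting all 22 probe sets of these genes, 14 were higher, with a median of 0.09. Of the 14 genes 13 were higher at 28 than at 26 months, with a median of -1.05 for 26 minus 28. The mean of the list stood at 0.77 to 0.94 at 28 months and at -0.41 to 0.17 at 26 months. Trem2, a lipid receptor of microglia, differed by 1.0 (SE 0.36), the endosomal protein gene Cd68 by 0.91 (SE 0.37) and the antibody receptor gene Fcgr3 by 0.71 (SE 0.25). The activated list was thus higher than the general list at 28 months by its means, and their overlap in cells was not tested.

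Of 9 complement genes 8 were higher, with a median of 0.38. Counting all 16 probe sets of these genes, 13 were higher, with a median of 0.48. C1qc, a chain of the initiating complex, read 8.40 at 28 months in striatum, 8.50 in brainstem and 7.48 in cerebellum, against 6.93 and 7.28, 6.72 to 8.33, and 5.96 to 6.77 on the younger arrays. It was 7.48, 7.88 and 6.25 at 26 months, so that the groups overlapped in brainstem and cerebellum, and it differed by 0.67 (SE 0.26). C1qa differed by 0.60 (SE 0.27).

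Of 12 lysosomal genes 11 were higher over all arrays, with a median of 0.17, and all 12 within E5R_054, with a median of 0.18. Counting all 31 probe sets of these genes over all arrays, 27 were higher, with a median of 0.21. Ctsd, the protease cathepsin D, read 11.34, 11.64 and 11.01 at 28 months and 10.24, 11.08 and 10.27 at 26 months in striatum, brainstem and cerebellum. Its younger arrays ran from 9.90 to 10.23, from 10.32 to 10.83 and from 10.17 to 10.48, so that the groups stayed apart in striatum and brainstem. It differed by 0.59 (SE 0.17), the cathepsin gene Ctsz by 0.62 (SE 0.20) and the glucuronidase gene Gusb by 0.68 (SE 0.15). In brainstem, where 4.69% of the bright probe sets rose, Ctsl rose by 0.45, the 1 of 12 lysosomal genes called within a region.

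Gfap, the astrocyte filament gene and an age marker named by the study, was higher at 26 to 28 months in striatum and brainstem. In striatum its brightest probe set read 11.60 and 11.07 at 28 and 26 months against 10.27 at 20 and 8.80 at 22 months. In brainstem it read 12.47 and 12.46 against 10.32 to 10.99. In cerebellum it read 11.54 at 28 months, but its 26-month array at 10.67 lay among the younger arrays of 9.95 to 11.29. Over all arrays it differed by 1.25 (SE 0.32) and within E5R_054 by 1.36 (SE 0.26), with no call. Within brainstem it rose by 1.81 (SE 0.45, limma adjusted p = 0.0382), where 4.69% of the bright probe sets rose. The same brainstem arrays also differed in regional markers, described below, and the part of that in the rise of Gfap was not tested.

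Over the astrocyte list 13 of 16 genes were higher, with a median of 0.16, and 6 were higher at an unadjusted p under 0.05, beside 22.9% of all and 8.07% of the bright probe sets. Counting all 45 probe sets of these genes, 37 were higher, with a median of 0.15. Serpina3n, a secreted protease inhibitor of reactive astrocytes, differed by 0.74 (SE 0.18) with the groups apart in all regions, and it was highest at 28 months in striatum at 11.09. Vim, an intermediate filament gene, differed by 0.77 (SE 0.27).

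Targets of the glucocorticoid receptor were higher in the older group too, but on other arrays. Of 10 genes 9 were higher at 26 to 28 months, with a median of 0.62, and 7 were higher at an unadjusted p under 0.05, beside the same 22.9% and 8.07%. Counting all 24 probe sets of these genes, 20 were higher, with a median of 0.28. The list mean stood at 0.93, 0.89 and 1.08 above the 20 to 22-month mean on the 26-month male arrays of striatum, brainstem and cerebellum, and at 0.10, 0.09 and 0.24 on the 28-month female arrays. The 20-month arrays of mixed sex stood at 0.32, 0.36 and 0.14, and the 22-month female arrays at -0.32 to 0.05. The 20-month arrays were thus above the 28-month arrays in striatum and brainstem.

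Within E5R_054 the median of this list was 0.27 in place of 0.62, and for 22 minus 20 months it was -0.34. For 26 minus 28 months it was 0.75, with 6 genes at an unadjusted p under 0.05. Tsc22d3, the leucine zipper protein GILZ, read 9.03, 10.94 and 10.19 at 26 months in striatum, brainstem and cerebellum, and 7.89, 9.76 and 8.89 at 28 months. The 20-month arrays read 8.53, 9.71 and 9.53, and the 22-month arrays 8.07 to 9.03 over all regions. Pdk4, a kinase that restrains glucose oxidation, differed by 0.60 (SE 0.17), the salt and hormone-induced kinase gene Sgk1 by 0.73 (SE 0.23) and the sulfotransferase gene Sult1a1 by 0.93 (SE 0.31). Sgk1 was at 0.12 (SE 0.19) within E5R_054.

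Region by region, most calls lay in brainstem. There 3039 probe sets were called with limma, 1381 higher (3.07%) and 1658 lower (3.68%) at 26 to 28 months, of which 1057 and 1593 were bright (4.69% and 7.07% of the bright probe sets). The bright probe sets of brainstem ran from -1.09 to 0.95 between the 5th and the 95th percentile, against -0.56 to 0.58 in striatum and -0.45 to 0.43 in cerebellum. Among 22-month brainstem arrays, replicates 2 and 3 correlated least with other old WT arrays of brainstem (median r 0.964 and 0.967, against 0.973). Without these 2, left out after seeing the data, 479 were called, 402 of them among the 3039. Within the E5R_054 arrays 32 were called, 18 of them shared. Leaving out single arrays gave between 740 calls (without the 26-month brainstem array) and 4689 (without the 20-month cerebellum array), with 1548 and 1339 without the 22-month brainstem replicate 2 or 3.

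The smallest p in brainstem belonged to a marker of position along the neural tube. Hoxb5, a homeobox gene of the hindbrain and spinal cord, read 7.58 and 7.33 at 28 and 26 months, and 2.37 to 2.39 on all 4 younger arrays. It rose by 5.07 (SE 0.05, limma adjusted p = 4.77e-13). The 6-month brainstem arrays, however, read 5.92 and 4.40, so that the young and the oldest arrays held the transcript and those of 20 and 22 months did not rise above the floor. Hoxb3 read 6.67 and 6.65 against 3.23 to 3.76, and 7.13 and 6.59 at 6 months. It rose by 3.16 (SE 0.13, limma adjusted p = 4.43e-07).

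Among 33 Hox genes on the array, a list added after these genes were seen, 9 rose in brainstem (Hoxa5, Hoxb2, Hoxb3, Hoxb5, Hoxb6, Hoxc4, Hoxc5, Hoxc6 and Hoxd3) and none fell, beside 3.07% higher over all probe sets. Only 2 of the 33 were bright over the whole series. Slc6a5, the glycine transporter of inhibitory neurons in hindbrain and spinal cord, rose by 4.11 (SE 0.60). It read 8.86 and 8.67 at 28 and 26 months against 3.68 to 5.65, and 9.03 and 9.07 at 6 months. Slc6a3, the dopamine transporter of midbrain neurons, fell by 1.35 (SE 0.21), with 9.21 and 9.52 at 28 and 26 months against 10.12 to 11.20. Ddc, which makes dopamine and serotonin from their precursors, fell by 0.78 (SE 0.21). Slc6a5, Slc6a3 and Ddc belong to a list of 13 measured brainstem and midbrain neuron genes. Of that list 3 genes rose and 2 fell in brainstem, beside 3.07% and 3.68% of all probe sets. Its other genes were not called, and its median there was 0.02.

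Cerebellar transcripts differed among the same arrays. Gabra6, a receptor subunit of cerebellar granule cells, read 2.44 to 2.49 on the 3 brainstem arrays of 22 months, 8.69 at 20 months, and 6.18 and 7.41 at 28 and 26 months. Pcp2, of Purkinje cells, read 3.64 to 4.59, 8.58, and 6.78 and 7.38 on these arrays. The 20-month array lay above the oldest arrays and the 22-month arrays far below them. The part of such regional markers in the other brainstem calls was not tested.

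**Figure D4:**
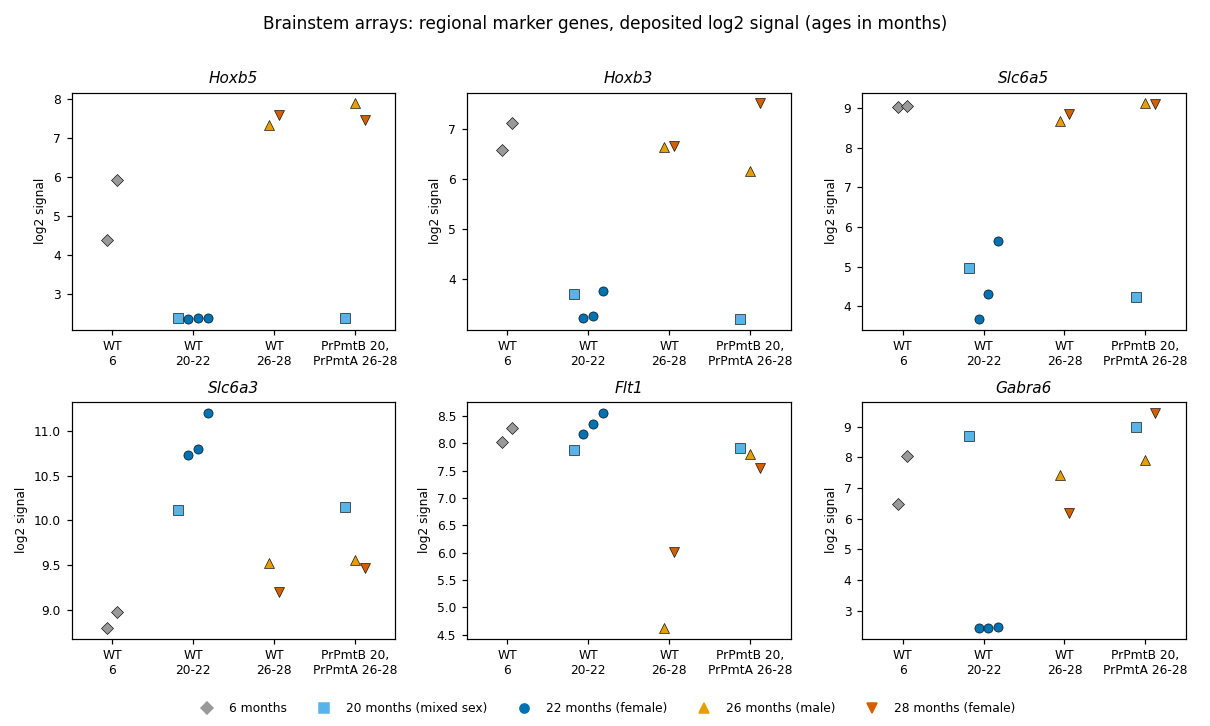
Deposited log2 signal (y axis) of 6 marker genes on each brainstem array, for WT at 6, 20 to 22 and 26 to 28 months and for the transgenic E5R_054 arrays (x axis), with 1 point for an array. Hoxb5, Hoxb3 and Slc6a5 are low on every 20 and 22-month array and high on those of 6, 26 and 28 months, Flt1 is low only on the WT arrays of 26 and 28 months (4.62 and 6.01), and Gabra6 is lowest at 22 months (2.44 to 2.49).

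The list with the most lower calls in brainstem was that of vessel cells. Of 14 endothelial and mural cell genes 6 fell (Flt1, Tek, Kdr, Slco1a4, Pdgfrb and Vtn) and none rose, with a list median of -0.99 against 0.03 over all probe sets tested, of which 3.68% fell (7.07% of the bright ones). Flt1, a receptor for vascular growth factor, read 6.01 and 4.62 at 28 and 26 months against 7.88 to 8.56, and fell by 2.93 (SE 0.54, limma adjusted p = 0.0144). Tek, the angiopoietin receptor, fell by 2.19 (SE 0.34) and the pericyte receptor gene Pdgfrb by 2.14 (SE 0.36). In striatum and cerebellum none of the list was called, beside only 0.280% and 0.0444% of all probe sets. Its medians there were 0.11 and 0.29. The transgenic brainstem arrays of 28 and 26 months read 7.55 and 7.81 for Flt1, beside 7.91 at 20 months.

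Neuronal lists also held calls in brainstem, to be read beside the 7.07% of bright probe sets that fell and the 4.69% that rose. In the glutamate and GABA receptor, synaptic vesicle, cortical and striatal lists most calls were lower, at shares above that 7.07%. Of 11 glutamate and GABA receptor genes 3 fell, among them Grin2b, an NMDA receptor subunit, by 3.42 (SE 0.46). It read 3.57 and 3.36 at 28 and 26 months, against 5.93 at 20 and 6.43 to 7.61 at 22 months. Gria1 fell by 0.94 (SE 0.12) and Gabrb2 by 0.77 (SE 0.09). The synaptic vesicle genes Syt1, Sv2a and Dnajc5 fell, 3 of 13, with Syt1, the calcium sensor of release, lower by 1.16 (SE 0.19). Lamp5, listed as a cortical marker, rose by 3.28 (SE 0.39), and read 11.28 and 11.64 at 28 and 26 months against 7.57 to 8.99. Of the other 10 cortical genes Rasgrp1 and Cux2 fell, by 1.43 and 1.28, and the median of the 11 was -0.03. Of the 14 striatal neuron genes Drd2, Foxp1, Bcl11b, Gpr6 and Rasd2 fell and Penk rose.

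Of 14 chaperone genes, the small heat shock gene Hspb1 rose in brainstem by 1.63 (SE 0.32) and Hspa1a and Hsph1 fell, by 1.09 and 0.77. The list median was 0.02, and so few calls are near the 4.69% and 7.07% of bright probe sets. The noncoding RNA Malat1 fell by 2.32 (SE 0.59, limma adjusted p = 0.0414). It read 8.96 and 8.26 at 28 and 26 months, 10.16 at 20 months and 10.77 to 11.83 at 22 months. In brainstem gene length went along with direction, as the median difference was 0.22 for 3943 bright probe sets of genes spanning under 10 kb and -0.29 for 3597 of genes spanning over 100 kb. These medians were 0.10 and -0.06 in striatum, and -0.0045 and 0.06, in the other order, in cerebellum. A span was known for 89.4% of the bright probe sets, and the part of RNA quality in this was not tested.

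In striatum, with 2 arrays against 2, 126 probe sets were called (0.280%), 36 higher and 90 lower, but only 19 of them were bright. Tnnc1, a calcium-binding troponin, rose by 1.85 (SE 0.27), the growth factor gene Igf1 by 0.91 (SE 0.14, on a probe set that is not its brightest), its binding protein relative Igfbp7 by 0.86 (SE 0.15) and Tspan17 by 0.76 (SE 0.09). The striatal phosphodiesterase gene Pde7b fell by 0.62 (SE 0.10) and Kalrn, a regulator of dendritic spines, by 1.06 (SE 0.11). Foxp1, a transcription factor gene of medium spiny neurons, fell by 0.74 (SE 0.11), also on a probe set that is not its brightest. On their brightest probe sets, none of the 14 listed striatal neuron genes was called in striatum. The 22-month and 26-month striatum arrays differed most in cortical transcripts, as Tbr1, a factor of cortical projection neurons, read 3.26 at 22, 7.27 at 20, 6.05 at 28 and 8.87 at 26 months. Within E5R_054 63 were called, 21 of them among the 126. Leaving out 1 striatum array gave 271 calls (22 months), 1490 (20 months), 601 (28 months) and 406 (26 months).

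In cerebellum 20 probe sets were called (0.0444%), 17 higher and 3 lower, and the 1 bright among them was of Adgrl3, an adhesion receptor of synapses. It read 7.30 and 7.11 at 28 and 26 months against 5.81 to 6.35 and rose by 1.09 (SE 0.14, limma adjusted p = 0.0216). In brainstem the same probe set fell by 1.20 (SE 0.14). Within E5R_054 146 cerebellar probe sets were called, 29 higher and 117 lower, and 1 of them was among the 20. Leaving out the cerebellum array of 20, 28 or 26 months gave 225, 249 and 182 calls.

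The age difference itself differed between regions for 379 probe sets (0.842%) by limma's moderated F test, with 5822 at an unadjusted p under 0.05. Of the 10 genes with the smallest p, Hoxb3 and Stk26 rose in brainstem (3.16 and 1.08) while Stk26 fell in striatum by 0.85. Clspn, a checkpoint protein gene, differed because of striatum, where it fell by 0.91, from 6.62 and 6.61 to 5.62 and 5.79, while it stayed near the floor elsewhere. Laptm4b, a lysosomal membrane protein gene, rose by 0.34 in brainstem and stood at -0.25 in cerebellum, and Gm33727 stood at 1.07 in brainstem.

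On the other side, Igf1 fell by 1.27 in brainstem and rose by 0.91 in striatum for the same probe set. It read 4.92 and 4.87 at 28 and 26 months in brainstem against 6.09 to 6.24, and 4.51 and 4.68 in striatum against 3.43 and 3.94, with no overlap in either region. The brightest probe set of Igf1 was called in neither, at -0.50 (limma adjusted p = 0.134) in brainstem and 0.28 (adjusted p = 0.811) in striatum. Mmrn2, a matrix protein of vessels, fell by 1.89 in brainstem, and stood at 0.43 in striatum and 0.34 in cerebellum. Fam160a2 and C230091D08Rik stood at -1.71 and -0.86 in brainstem, and at 0.25 and -0.20 in striatum.

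The remaining lists held no call between the age groups over the 16 arrays. The medians were 0.06 for 12 genes of antigen presentation, 0.03 for 19 interferon-response genes, 0.02 for 14 lymphocyte genes, 0.00 for 14 myelin genes and -0.09 for 12 genes of precursors and cell division. Only 1 of the 14 lymphocyte genes was bright, and the mean signal of that list was 2.67 to 2.82 on the 16 arrays. Further medians were 0.06 for 20 nuclear genes of oxidative phosphorylation, 0.10 for 10 ribosomal protein genes and 0.16 for 12 genes of cholesterol synthesis. Those of 10 senescence and p53 genes and of 13 immediate early genes were 0.05 and -0.12. The interferon list reached 0.28 within E5R_054, with 17 of 19 genes higher. Irf9, a factor of the interferon signal, differed by 0.53 (SE 0.15) and Bst2, a tethering protein of the interferon response, by 0.66 (SE 0.24).

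Lists with medians below 0 included 8 long noncoding RNAs (-0.22) and 11 glutamate and GABA receptor genes (-0.21, with 2 of 11 higher). Meg3, a maternally expressed noncoding RNA that the study names as an age marker, read 11.74 and 11.79 on its brightest probe set at 28 and 26 months in striatum against 11.93 and 12.14. In brainstem it read 10.35 and 10.32 against 10.52 to 11.04, and in cerebellum 10.77 and 11.18 against 10.85 to 11.26, where the groups overlapped. It differed by -0.29 (SE 0.10, limma adjusted p = 0.163). Other lists were at 0.22 for 11 choroid plexus and ependyma genes, which turned to -0.30 within E5R_054, at -0.18 for 10 meningeal genes, at 0.12 for 15 clock genes, which turned to -0.07 within E5R_054, and at -0.01 for 14 chaperone genes. The neuron lists were at -0.05 for 14 striatal, 0.25 for 11 cortical and 0.03 for 13 brainstem and midbrain genes. Counting all probe sets of these genes, the medians were -0.30, -0.02 and 0.03. The list of 11 cerebellar genes was at -0.01, and at -0.52 within E5R_054, and the vessel list was at -0.26. With all their probe sets the cerebellar and vessel lists were at -0.14 and -0.13 over the 16 arrays.

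Within the younger group, the 22-month arrays of E5R_031 and the 20-month arrays of E5R_054 differed in 12 called probe sets (0.0266%), with 4384 at an unadjusted p under 0.05. Eif2s3y fell by 3.38 (SE 0.28) from the mixed-sex 20-month to the female 22-month arrays. The other named ones were Srp19, of the signal recognition particle, at 0.50 (SE 0.04), the kinase gene Nlk at -0.38 (SE 0.03), the mitochondrial protease gene Afg3l2 at -0.44 (SE 0.04), D230025D16Rik at -0.52 (SE 0.04) and Zkscan1 at -0.66 (SE 0.05). Bright called probe sets without a single gene symbol stood at -6.11, -4.03, -3.85, -0.45 and 0.97. The largest differences of this comparison were among these unnamed probe sets, whose genes were not identified here. Clock genes had a median of -0.40 and choroid plexus genes of -0.81 for 22 minus 20 months, beside -0.06 for the bright probe sets. Age, array series and sex cannot be told apart here.

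The same ages occurred in transgenic arrays that the WT comparison did not use. Within E5R_054, PrPmtA at 28 months (labelled female) and 26 months (male) was compared with PrPmtB at 20 months (mixed), 6 arrays against 3, where line and age cannot be told apart. The PrPmtA arrays labelled female at 28 months gave Eif2s3y signals of 6.01 to 7.02, in the range of male and mixed-sex arrays. Limma called none (0%), and 1800 probe sets had an unadjusted p under 0.05.

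Of the 22518 bright probe sets 15136 (67.2%) had the same sign in WT and in the transgenic arrays, with a correlation of 0.51 across probe sets, which are not independent and share the processing of 1 array series. Of the 10 genes named within WT E5R_054 all 10 had the same sign, and of the 20 named over all 16 arrays 16 had. Among all 1166 probe sets that lay on the same side of the 20-month array in each region, the selection that these genes had passed, 947 (81.2%) had the same sign, and both counts are to be read beside that share. Tgfbi was at 0.68, Nek6 at 0.43, Axl at 0.31, Bid at 0.30, Lgmn at 0.17 and Mt1 at 0.13 in the transgenic arrays. Dclk1 was at -0.44 and Tardbp at -0.05, whereas Ctla2b, Cebpd, Rhobtb2 and Pxn had the opposite sign, at -0.31, -0.16, 0.07 and 0.24.

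For the activated microglia list the transgenic median was 0.56, with 14 of 15 genes higher. The list mean stood at 0.50, 1.26 and 0.36 on the 28-month PrPmtA arrays of striatum, brainstem and cerebellum, measured against the WT mean of 20 to 22 months. It stood at 0.04, 0.64 and -0.27 at 26 months and at -0.13, -0.40 and 0.02 on the PrPmtB arrays of 20 months. The 28-month array was again the highest of the 3 in each region, at values below those of WT. Complement genes had a median of 0.46 and Gfap a difference of 0.87. The glucocorticoid list had a median of 0.01, and stood on the 26-month male PrPmtA arrays at 0.41, 0.57 and 0.34, beside 0.38, 0.36 and 0.30 at 20 months.

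The regional markers of brainstem moved in the transgenic arrays as well. Hoxb5 read 7.46 and 7.89 at 28 and 26 months in PrPmtA and 2.4 at 20 months in PrPmtB. Slc6a5 read 9.10, 9.13 and 4.22 on these arrays.

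**Figure D5:**
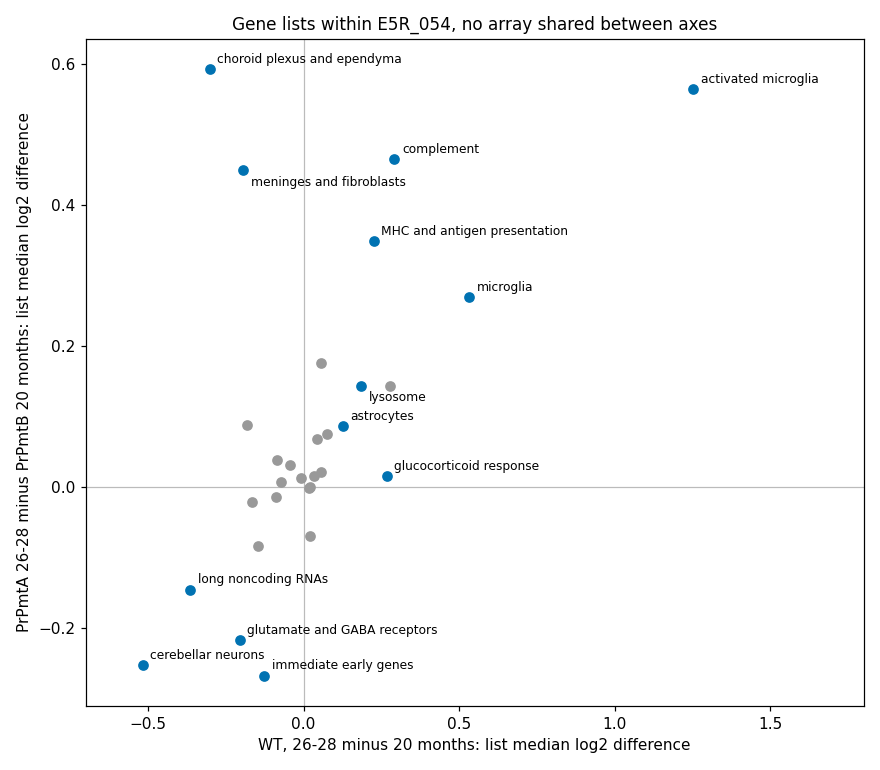
Median log2 difference of each gene list within the E5R_054 arrays, for WT 26 to 28 minus 20 months (x axis, 6 arrays against 3) and for PrPmtA 26 to 28 minus PrPmtB 20 months (y axis, 6 arrays against 3), with 1 point for a list. Activated microglia lie farthest to the right (1.25 and 0.56), receptor genes lie below 0 on both axes, and choroid plexus and ependyma genes stand at -0.30 in WT and 0.59 in the transgenic arrays.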

How the data were processed

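The authors deposited log2 signals of Affymetrix Mouse 430 2.0 arrays, 1 value for each of 45101 probe sets and 54 arrays, background-corrected and normalized over all chips. The methods name RMA and the submitters' processing notes name GCRMA, a choice that acts most on weak signals, and which one applies was not settled here. Values were used as deposited, and the number of columns left out was 0. Without 64 control probe sets of the array, 45037 remained for testing. Platform annotation gave 1 gene for 34945 probe sets, several for 932 and none for 9160.

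In R 4.3.3 with limma 3.58.1, linear models with moderated standard errors were fitted to the arrays of each comparison with region as a factor, and to means of region and age class for the regional contrasts. Calls had a Benjamini-Hochberg adjusted p under 0.05. Named genes were, among bright probe sets with 1 gene, the 10 of each direction with the smallest p whose 26 and 28-month E5R_054 arrays lay on 1 side of the 20-month array in all regions (5 of each direction within E5R_054), the 5 of each direction with the smallest p for a difference between regions, 2 to 4 members of each list, and Gfap, Lyz1, Lyz2 and Meg3. Where a list was described, each gene had its brightest probe set of that gene alone, which 364 of 420 listed genes had. Medians over all probe sets of a list's genes are given where stated. They differed from the others in size and at times in sign. The members of this comparison and the lists were chosen with earlier results of these data known. The fits were tested on simulated data with independent noise on each array, so dependence between arrays of 1 code was not simulated. Alternatives were array series, array code as a random block, sex, age as a slope, other variance priors, quantile normalization and left-out arrays. Upstream sequences came from RefSeq (GRCm38.p6).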

Additional observations from a re-analysis of the deposited data

Results flagged for a closer look

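Among 142 groups of 4 arrays (the values of the described genes and lists in brainstem and cerebellum at 20 to 22 months), 11 had 1 array far from the other 3 by Dixon's test at its 95% level, which chance gives in about 1 of 20 groups. The 20-month arrays of mixed sex stood apart in the sex-linked genes, at 5.68 in brainstem against 4.54 to 4.66 and at 6.57 in cerebellum against 4.74 to 4.82 on the female arrays. The same 20-month arrays stood apart in the glucocorticoid list of brainstem (7.89 against 7.40 to 7.41), in B230308N11Rik in cerebellum (7.42 against 6.94 to 6.97) and in the long noncoding RNAs of cerebellum (8.27 against 8.55 to 8.60). The 22-month replicate 1 stood apart in the striatal neuron list of brainstem (6.80 against 7.07 to 7.09), in Pxn in cerebellum (9.69 against 9.49 to 9.51) and in the myelin list of cerebellum (9.22 against 9.49 to 9.53). The others were of weak signals, Stk26 (2.61 against 2.57 to 2.58) and Clspn (2.97 against 2.87 to 2.88) in the 22-month brainstem replicate 2, and Clspn in the 22-month cerebellum replicate 3 (2.78 against 2.86 to 2.88).

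The age difference differed between regions for 379 probe sets by the moderated F test of limma. Brainstem minus the mean of the other regions was 3.10 for Hoxb3, 1.50 for Stk26, 0.46 for Clspn, 0.43 for Laptm4b and 0.94 for Gm33727, and -1.74 for Igf1, -2.28 for Mmrn2, -1.64 for Adgrl3, -2.06 for Fam160a2 and -0.76 for C230091D08Rik.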

How the results depend on the processing

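With the array series as a term the count was 0 over all 16 arrays, but all 22-month arrays are E5R_031. That fit gave the same list medians as E5R_054 alone, so it is no separate check. The count of 0 also held with array code as a random block (also with the E5R_031 numbers), age as a slope and the share of males. It held with quantile normalization, in the bright probe sets alone and without brainstem. It became 1355 with group means over all 54 arrays (700 higher and 655 lower), 5027 with a trended prior (4782 and 245), 161 without the 20-month array code, 17 without the 28-month code and 24 without the 26-month code. Leaving out single arrays gave 0 to 53, with 53 without the 20-month cerebellum array and 1 without the 20-month brainstem array. Within E5R_054 and in the transgenic arrays every alternative gave 0, and leaving out single arrays 0 to 0.

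Striatum had 63 calls within E5R_054 and 8 in the bright probe sets alone, and 98 to 1490 with single arrays left out (271, 1490, 601 and 406 without the striatum array of 22, 20, 28 or 26 months). Brainstem had 32 within E5R_054, 479 without the 22-month replicates 2 and 3, and 740 to 4689, with 1548 and 1339 without replicate 2 or 3 of 22 months alone. Cerebellum had 146 within E5R_054, 13 without those 2 brainstem arrays, 0 in the bright probe sets alone and 16 to 249, with 225, 249 and 182 without the cerebellum array of 20, 28 or 26 months. The difference between regions had 89 within E5R_054, 149 without the 2 brainstem arrays and 170 to 1579, with 1579, 804, 956 and 846 without the 20 or 28-month striatum, the 28-month brainstem or the 20-month cerebellum array, and 211 and 170 without replicate 2 or 3 of 22 months of brainstem and 217 and 182 of cerebellum. The count for 22 against 20 months became 44 in the bright probe sets alone and 4 to 65 with single arrays left out. It was 65 without 1 or the other striatum array and 25 without the 20-month brainstem array. It was 6 and 5 without the 22-month brainstem replicate 2 or 3, and 4 to 7 without 1 of the 22-month cerebellum arrays. The count for 26 against 28 months became 0 to 0, since Xist was lost with any 1 array left out. Quantile normalization moved no count by over 1.5 times. The correlation within array codes was 0.05 over all arrays, -0.04 with the E5R_031 numbers, -0.16 within E5R_054 and 0.47 in the transgenic arrays. No paired analysis was possible because replicate numbers follow accession order and the age groups share no array code. The exclusion of 2 brainstem arrays, the fit without brainstem and the Hox list were chosen after seeing the data. The causes of these changes were not tested.

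Among the values of single genes and lists under the alternatives, 2261 kept direction and side of the threshold, 86 passed it only under the alternative, 52 lost it, and 10 list medians moved, such as the glucocorticoid list to 0.27 and the interferon list to 0.28 within E5R_054.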
